A study of Drosophila melanogaster with 19 samples.

Results

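The genes described here are those for the proteins of the cytosolic ribosome of Drosophila melanogaster, followed across 17 neuron types of the adult optic lobe, the visual part of the fly brain. They were taken by name, as every row of the deposited count table whose FlyBase symbol starts with RpL (large subunit) or RpS (small subunit), without the mitochondrial mRpL and mRpS genes. That rule gave 87 genes of 17558 in the table, paralogues included. Of these, 82 had enough reads to be tested, and RpL10Aa, RpL22-like, RpL37-2, RpL7-like and RpS28-like did not. RpL19, RpL27A, RpL31, RpS10b and RpS12 were not matched to a row and were not analysed here.

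A cytosolic ribosome joins a small subunit, which reads the mRNA, to a large subunit, which forms the peptide bond and feeds the new protein into an exit tunnel. Each ribosomal protein is needed once or a few times per ribosome, so the genes are transcribed together and at high levels in growing cells, under regulators such as Myc and the TOR pathway. In Drosophila, loss of a copy of many of these genes gives the Minute phenotype of slow development and short bristles. Some members have an additional gene copy, and several of those copies are known mainly from the fly germ line.

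The 17 types were the lamina feedback types Lawf1 and Lawf2 with C2 and C3, the Dm types Dm2, Dm8 and Dm12, and Mi1. Also among them were the T types T1, T2, T3 and T5 and the Tm types Tm2, Tm3, Tm5ab, Tm5c and Tm9. Each type was compared with the mean of the other 16. Sorted neurons, which the submitters' design uses as the control, were compared with the mean of the 17 types. Their levels are also printed beside those of single types. A mixture line was added that labels T1 and Tm1 cells together. In each group the flies carried a Gal4 driver for the cells named and a UAS transgene for Red Stinger, a nuclear red fluorescent protein, and labelled cells of adults aged 3 to 6 days were sorted by fluorescence. The driver lines are not named in the sources used here, and the title of the sorted neurons names Elav, a pan-neuronal gene. The design text gives GFP, in Tm1 and T1, for the mixture line. GEO lists 1 sample per group and the table has 3 numbered libraries of each, 57 in all, so the spread behind each p-value is that between these libraries and may be technical.

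Libraries held 0.602 M to 72.7 M reads in genes (M for mega), with a median of 21.8 M, and the shallowest were those of T2 at 9.44 M, 2.53 M and 0.602 M. Levels are counts per M reads with TMM scaling (CPM), given as mean ± SD over the 3 libraries. The 6 pan-neuronal markers had reads in every group and summed to between 5561 CPM in T1 and 36440 CPM in T2. The 8 glial markers summed to 32310 ± 4490 CPM in T1, of which the glutamate transporter gene Eaat1 made up 32110 CPM, and to between 53.5 CPM (Mi1) and 352 CPM (C2) in the other 16 types. In bulk samples such as these, fewer cells of a type and less RNA per cell cannot be told apart.

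The summed share of ribosomal protein genes differed widely between the neuron types. It was highest in Lawf1, a wide-field neuron with feedback to the lamina, at 1.96%, 1.86% and 2.12% of reads in genes in its 3 libraries. T5, a motion-detecting type, followed at 1.65%, 1.66% and 1.69%. T2 was lowest at 0.207%, 0.148% and 0.159%, and Tm5c, a colour-pathway type, was next at 0.463% ± 0.0673 (SD, n = 3). Sorted neurons stood between these at 0.984% ± 0.0764 (SD, n = 3) and the mixture at 0.857% ± 0.101 (SD, n = 3). In the order of the means, Lawf1, T5, Tm2, T1, Tm3, Mi1, T3, Dm12, Dm8, C2, Tm5ab, Dm2, Tm9, C3, Lawf2, Tm5c and T2, the libraries of neighbours overlapped except between Lawf1 and T5, between T5 and Tm2, and between Tm5c and T2. Relative to the median of the 17 types, the share was 2.65-fold in Lawf1, 2.23-fold in T5 and 0.229-fold in T2.

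**Figure D1:**
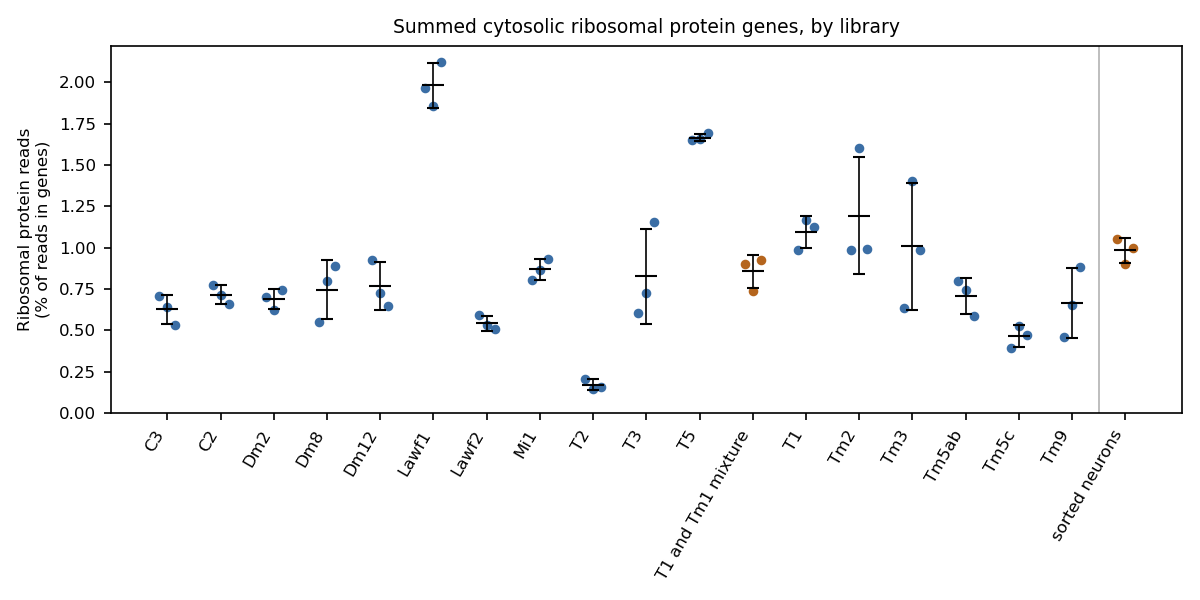
Share of reads in genes that fell in the 87 cytosolic ribosomal protein genes (y axis, percent) by group (x axis), with each of the 3 libraries as a point, the mean as a horizontal line and the SD as error bars. Lawf1 and T5 stand above the other groups, T2 lies below all of them, and Tm2, Tm3 and T3 have the widest spread between libraries.

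The spread was uneven between groups. Tm2 had shares of 0.987%, 1.60% and 0.995%, and Tm3 had 0.632%, 1.40% and 0.988%, so that library 2 was the high one in both. In those libraries the slope of log2(CPM + 1) deviations on log2 exon length, a measure of library makeup, was also lower than in their partners, at −0.159 against 0.017 and 0.001 in Tm2 and −0.094 against 0.086 and −0.004 in Tm3. Lawf1 (−0.117 to −0.146) and T5 (−0.12 to −0.154) had slopes of the same sign, and T2 had the opposite (0.158 to 0.211). Ribosomal protein genes are short, with a median exon length of 903 bases against 1408.5 bases over all genes. The part of library makeup in the shares was not tested. Their order was also computed with reads divided by exon length. Lawf1 (5.32%), T5 (4.20%) and T2 (0.577%) then kept their places at the top and bottom. A gene is divided by the same length in every library there, so a slope that differs between libraries is not taken out.

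Almost every member varied between the types, as did most of all tested genes. In an F test over the 17 types (edgeR's quasi-likelihood test with Benjamini-Hochberg adjustment over 12569 genes), 81 of 82 members passed an adjusted p of 0.05, where 90.9% of all tested genes did. With each library scaled to its sum of ribosomal protein reads, which asks whether a member's part of the family varied, 81 of 82 passed again, against 92.1% of all tested genes. The exception in both was RpS28a, a copy of RpS28b with at most 15 reads in any library (adjusted p = 0.0838, and 0.408 as a share). Lawf1 had the highest mean of 64 of the 82 members and T2 the lowest of 64. T5 was highest for 7 members, T1 for 4 and Tm2 for 3, and C2, Dm8, T2 and T3 for 1 each. With T2 set aside, Tm5c was lowest for 56.

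**Figure D2:**
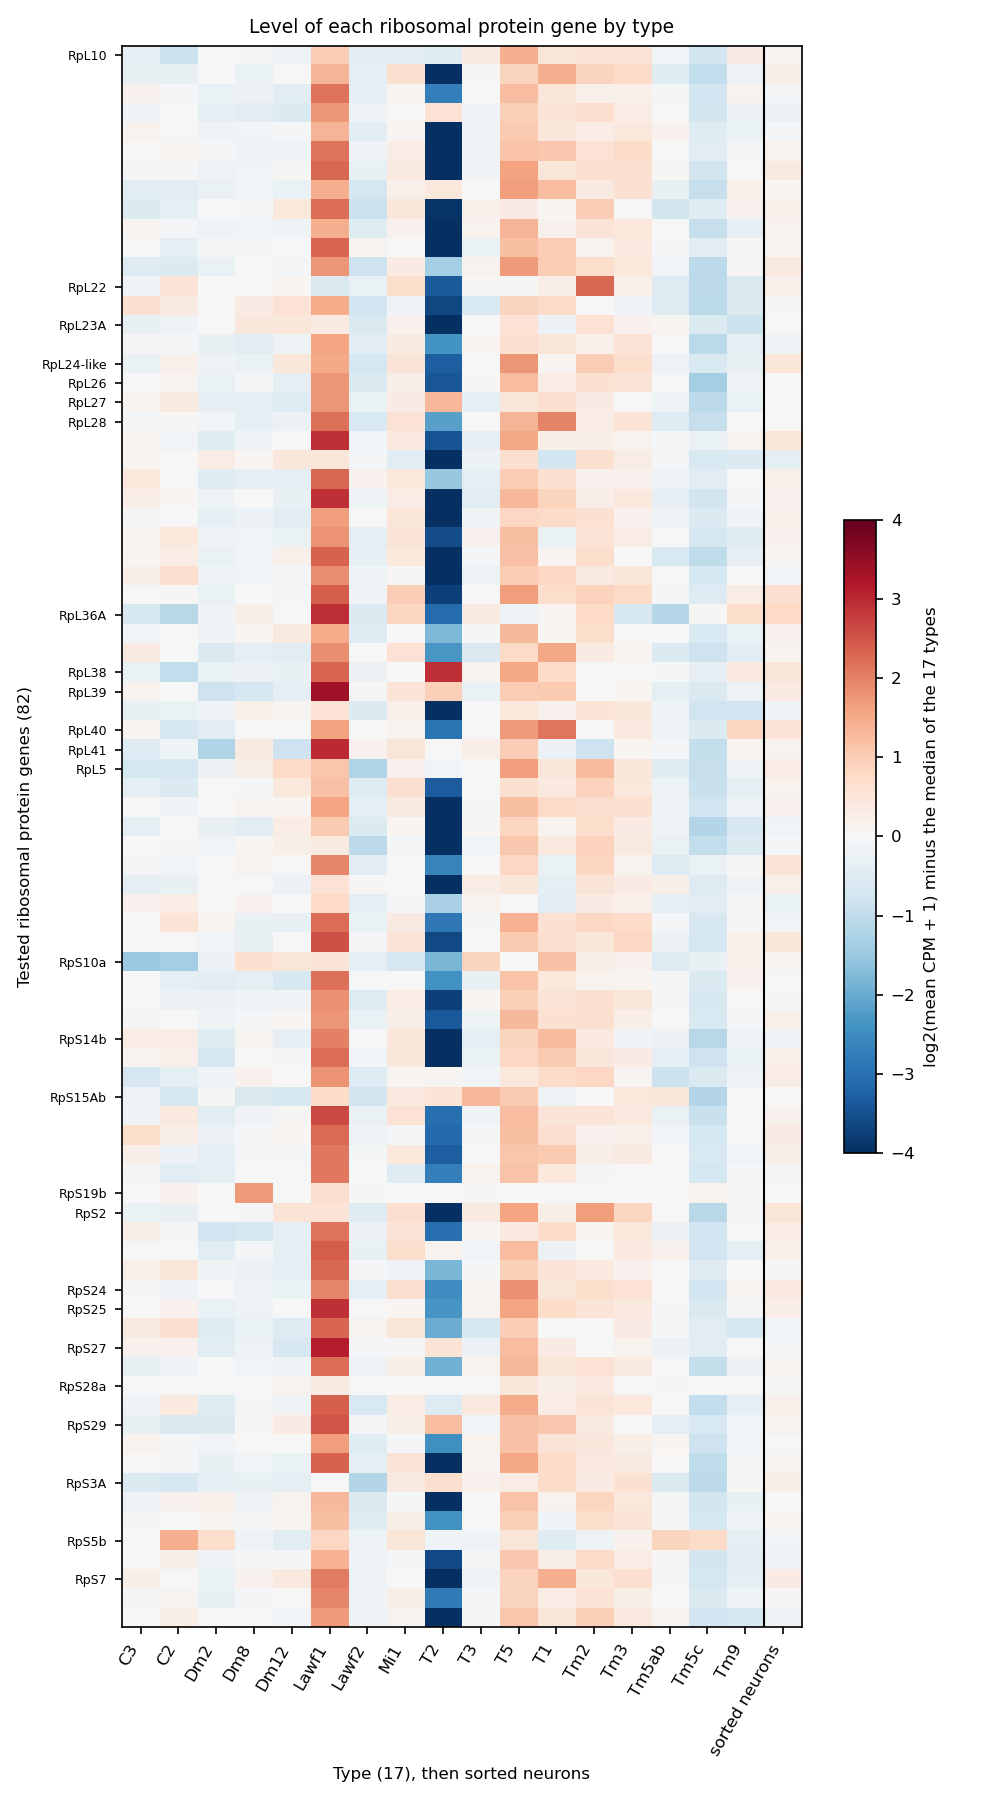
Level of each of the 82 tested members (rows) in the 17 types and sorted neurons (columns), as log2(mean CPM + 1) minus the median of the 17 types, with colours limited to 4 either way and with the names of the leading called members and RpS25 beside their rows. The Lawf1 and T5 columns are high for most members and the T2 column is low for most, with RpL38, RpL27 and RpS29 among the exceptions in T2.

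The members moved together across the types. The pairwise correlation of log2(CPM + 1) between the 77 members with at least 20 CPM in some type had a median of 0.858 over the 17 types, 0.817 without T2 and 0.62 without T2, Lawf1 and T5. These values describe profiles that share libraries, depth and scaling. Per kb of exon, the highest mean levels over the 17 types were those of RpS25 (468 CPM per kb), RpL40 (350 CPM per kb), RpL23 (271 CPM per kb), RpL15 (263 CPM per kb), RpS3A (260 CPM per kb) and RpL14 (246 CPM per kb). Outside the paralogue sets, RpS2, RpL23A, RpL14, RpL8 and RpS30 were among those that varied most between types, with SDs of 1.69 to 1.57 on the log2(CPM + 1) scale. RpS3A, RpL10, RpL12, RpL27, RpL15 and RpS21 varied least, with SDs of 0.571 to 0.753.

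In Lawf1 the ribosomal protein genes were higher nearly throughout, both subunits included. Of 82 members, 71 were called higher than the mean of the other 16 types (adjusted p under 0.05 and a log2 fold change of at least 1) and none lower, where 27.2% of all tested genes were called higher. None of the 82 was lower at an unadjusted p under 0.05 either, and DESeq2 called none lower. The low T2 libraries entered the mean of the other types, with no read of RpL22. RpL22 had 5.12, 6.15 and 6.34 CPM in the Lawf1 libraries, below the 12.97, 8.84 and 10.6 CPM of sorted neurons. The median log2 fold change was 2.03 over the members and 0.26 over all tested genes. For 56 members all 3 Lawf1 libraries lay above every library of the other 16 types, which held for 6.19% of all tested genes.

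RpS25, a small-subunit protein at the head of the subunit, led Lawf1 by level (FBgn0086472; chromosome 3R, 11215028 to 11216287, minus strand, BDGP6). It had 1870, 2171 and 2045 CPM in the Lawf1 libraries, against at most 970 CPM in any library of the other types and 324, 283 and 340 CPM in sorted neurons. No library of another group reached the Lawf1 values, and the log2 fold change was 2.91 (SE 0.15, adjusted p = 1.14e-22). RpS25 made up 8.29% ± 0.692 (SD, n = 3) of the family's reads in Lawf1, and the median of the 17 types was 3.85%. RpL39, one of the smallest proteins of the large subunit and a part of the exit tunnel wall, had 198, 242 and 222 CPM in Lawf1, against 34.1, 14.7 and 29.1 CPM in sorted neurons (log2 fold change against the other types 3.41, SE 0.19, adjusted p = 2.43e-22). RpL36A had 170, 172 and 200 CPM in Lawf1, against 47.9, 34.2 and 36.1 CPM in sorted neurons, and its log2 fold change was 3.26 (SE 0.16). RpL32, RpL41 and RpS27 also had log2 fold changes above 3, at 3.17, 3.17 and 3.13. RpS19b and RpS28a are counted among the called members as well, on a few reads, and are given with the paralogues. RpS19b passed the filter on low counts only through libraries of Dm8 and Lawf1, so its call is not read as a result.

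The 11 members not called in Lawf1 were RpL3, RpL4, RpL8, RpL10, RpL22, RpL23A, RpLP0, RpLP0-like, RpS2, RpS3A and RpS15Ab. RpL3, RpL4 and RpL8 are large core proteins of the large subunit, and their log2 fold changes were 0.85, 0.96 and 0.73. RpS3A had 360, 319 and 373 CPM in Lawf1 and 436, 395 and 405 CPM in sorted neurons, and its log2 fold change against the other types was 0.11 (SE 0.14, adjusted p = 0.613). RpS3A was therefore 1.43% of the family's reads in Lawf1, where the median type had 3.97%. The ratio of large to small subunit reads was 1.23 ± 0.0072 (SD, n = 3) in Lawf1, the lowest of the 17 types. T2 was highest at 1.77 ± 0.207, and sorted neurons were at 1.47 ± 0.0226. Untested members and those whose symbols end in -like were left out of this ratio.

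Short genes in general were higher in the Lawf1 libraries, so members were set beside other genes of their length. Among genes with 62 to 887 bases of exon, the median log2 fold change in Lawf1 was 2.39 over 39 members and 1.27 over 2432 other genes. Among genes of 888 to 1441 bases it was 1.73 over 39 members and 0.60 over 2430 other genes. With a trend on exon length taken out library by library, 60 members were called in Lawf1 and their median was 1.35.

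T5 had the next-highest levels after Lawf1. In T5, 57 of 82 members were called higher than the mean of the other types, where 15.2% of all tested genes were. No member was called lower, none was lower at an unadjusted p under 0.05, and DESeq2 called none lower. The median log2 fold change was 1.20 over the members and −0.04 over all tested genes. All 3 T5 libraries lay above every library of the other types for 3 members, against 1.04% of all tested genes. The leading members were RpS24 (290, 310 and 327 CPM in T5, against 140, 88.0 and 110 CPM in sorted neurons) and RpL24-like (276, 279 and 291 CPM in T5, against 134, 113 and 105 CPM in sorted neurons), with log2 fold changes of 1.85 (SE 0.15, adjusted p = 1.22e-15) and 1.84 (SE 0.15, adjusted p = 3.99e-15). RpL24-like is related to a yeast assembly factor, as given with the paralogues. RpL5, which carries the 5S rRNA into the large subunit, had 928, 931 and 800 CPM in T5 (log2 fold change 1.68, SE 0.15). Sorted neurons had 329, 321 and 374 CPM of RpL5.

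RpL36A and RpL39, which led in Lawf1, were not called in T5. RpL36A had 16.9, 22.9 and 21.1 CPM in T5, below all 3 libraries of sorted neurons, and its log2 fold change against the other types was −0.09 (SE 0.24, adjusted p = 0.965). RpL39 had 24.8, 40.7 and 60.2 CPM in T5, and RpS3A, which was not called either, 468, 453 and 376 CPM. Within the 2 sets of exon length given above, the T5 medians were 1.24 over members against 0.44 over other genes in the shorter set and 1.19 against 0.42 in the longer. The T5 count depended on T2 and on length: it was 44 with T2 left out and 30 with the exon length trend taken out.

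**Figure D3:**
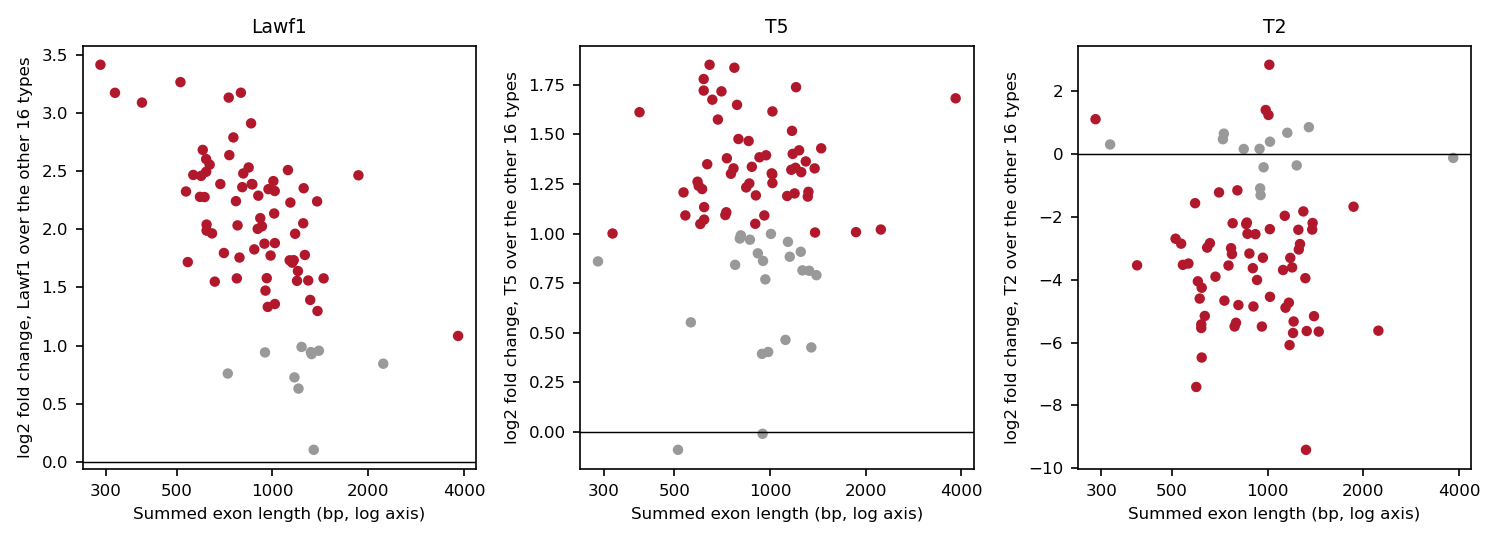
Log2 fold change against the other 16 types (y axis) by exon length in bases (x axis, log scale) for Lawf1, T5 and T2, with 78 members as points and called members in red (RpL22, RpS10a, RpS19b and RpS28a, with no T2 read, are not drawn). The shortest members lie above 3 in Lawf1 and the longer ones nearer 1, the T5 points show no such slope, and the T2 points lie mostly below −1, with RpL38 highest at 2.84.

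T2 was the low extreme. Of 82 members, 62 were called lower than the mean of the other 16 types, where 22.5% of all tested genes were called lower. On the log2 scale the median fold was −3.10 over the members and −1.24 over all tested genes, and stayed at −3.10 with the genes without a T2 read set at their bound or left out. For 59 members all 3 T2 libraries lay below every library of the other types, against 18.2% of all tested genes. RpLP0, the base of the stalk that recruits elongation factors, had 2.84, 5.77 and 0 CPM in T2, and RpS2 had 8.52, 2.16 and 0 CPM. Against the other types their log2 fold changes were −5.64 (SE 0.41) and −5.33 (SE 0.46), and RpL8 and RpL3 had −6.08 (SE 0.39) and −5.62 (SE 0.34). RpL23A, which sits at the mouth of the exit tunnel, had 1 read in T2 library 1 and none in the others, where Dm8 had 125, 157 and 172 CPM and sorted neurons had 123, 92.2 and 119 CPM.

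A few members went the other way in T2, which changed the makeup of the family there. The 4 members called higher, where 18.5% of all tested genes were, were RpL38, RpL27, RpS29 and RpL39. RpL38, known in mice for the translation of Hox mRNAs, had 1024, 665 and 565 CPM in T2 (4687, 923 and 237 reads), against 149, 111 and 153 CPM in sorted neurons. Its T2 libraries were above every library of the other types, Lawf1 (446, 517 and 518 CPM) being next, and the log2 fold change was 2.84 (SE 0.21, adjusted p = 1.63e-17). RpL27 had 216, 176 and 138 CPM in T2, against 73.0, 62.0 and 72.0 CPM in sorted neurons, and its T2 libraries lay below those of Lawf1 and above every library of the other 15 types (log2 fold change 1.40, SE 0.21, adjusted p = 1.32e-07). RpS29 and RpL39 rose by 1.24 (SE 0.26) and 1.11 (SE 0.42) on the log2 scale, but RpS29 was not called without T2 library 1 (adjusted p = 0.264). RpL39 was not called when any 1 of the 3 T2 libraries was left out (adjusted p = 0.928, 0.0565 and 0.0577), nor by DESeq2. RpS3A had 652, 621 and 357 CPM in T2 and a log2 fold change of 0.85, under the fold threshold.

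RpL38 alone was 24.5% ± 0.475 (SD, n = 3) of the family's reads in T2, where the median type had 1.45%. RpL38, RpS3A, RpL15, RpL5, RpL27 and RpS29 together held 68.5% of the family's summed CPM in T2 and a median of 14.4% in the other 16 types. At the other end, 8 members had no read in any T2 library, 4 of them among the 82 tested. RpL22 was one of these. Its 0 reads allow up to 0.47 CPM in T2 (3 reads over the 3 libraries, for counting error alone, as PCR copies were not marked), so it was at least 24.8-fold lower than the mean of the other 16 types of 11.6 CPM.

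Values of library makeup moved with T2. Its TMM scaling factors were 0.485 to 0.697, and mitochondrially encoded genes took 6.83% of its reads, the highest of the types, against 2.77% in sorted neurons. Its median over all tested genes was itself at −1.24, and upper-quartile scaling moved every T2 fold by 0.85 on the log2 scale. The T2 split was 4 higher and 62 lower in the fit given and 12 higher and 50 lower with the exon length trend taken out. Among genes of 62 to 887 bases the T2 median was −3.17 over members and −2.04 over others, and among genes of 888 to 1441 bases −3.04 over members and −2.09 over others. The part of depth and library makeup in the T2 values was not tested.

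T1, a columnar type, had a small rise over most members, few of which were called. In T1, 13 of 82 were called higher than the mean of the other types, where 13.9% of all tested genes were, so that the share was near the background. The count was 24 without T1 library 1 and 20 with the exon length trend taken out. The median log2 fold change was 0.52 over the members and −0.14 over all tested genes, and 70 members were above 0. At an unadjusted p under 0.05, 59 members were higher and 2 lower. The low T2 libraries entered the mean of the other types here. No member was called lower, and DESeq2 called 1 lower, RpS5b (adjusted p = 0.0314). RpL40, made as a fusion with ubiquitin that is cut apart after translation, led by level (FBgn0003941; chromosome 2L, 4227699 to 4228561, plus strand). RpL40 had 662, 755 and 764 CPM in T1, against 271, 200 and 249 CPM in sorted neurons. All 3 T1 libraries were above every library of the other 16 types, of which T5 was next, and the log2 fold change was 2.14 (SE 0.14, adjusted p = 4.04e-19). RpL40 was 6.49% ± 0.104 (SD, n = 3) of the family's reads in T1, where the median type had 2.21%.

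RpL28, a large-subunit protein, had 114.7, 150 and 150 CPM in T1 and 39.5, 28.8 and 32.7 CPM in sorted neurons, and was exceeded in Lawf1 (log2 fold change in T1 2.01, SE 0.17, adjusted p = 4.25e-15). RpL37A and RpL10Ab both had log2 fold changes of 1.65, and RpS7, a small-subunit protein, had 1.54 (SE 0.15). RpL36A was at 17.8, 25.5 and 27.5 CPM in T1 and did not pass (log2 fold change 0.14, SE 0.23, adjusted p = 0.804). Beside these values, Eaat1 was at 32110 ± 4550 CPM in T1, 3093 ± 2050 CPM in the mixture and 407 ± 122 CPM in sorted neurons (SD, n = 3 each). The defining glial gene repo was at 3.75 CPM in T1, 3.53 CPM in the mixture and 3.11 CPM in sorted neurons, and wrapper had no read in T1.

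The mixture of T1 and Tm1 cells was lower than T1 for a set of members led by RpS7, RpS10a and RpL40. Of 82 members, 17 were lower in the mixture than in T1 at an adjusted p under 0.05, where 12.6% of all tested genes were, and 1 was higher, where 17.3% were. The median log2 fold change was −0.29 over the members and 0.06 over all tested genes. RpL40 had 373, 195 and 301 CPM in the mixture and 662, 755 and 764 CPM in T1, with no overlap (log2 fold change −1.33, SE 0.24, adjusted p = 1.2e-05). RpS7 had 172, 136 and 134 CPM in the mixture and 421, 479 and 447 CPM in T1 (log2 fold change −1.60, SE 0.23, adjusted p = 1.57e-07). RpL28 had a log2 fold change of −1.30 (SE 0.28) and RpS10a −1.50 (SE 0.44). The member that rose was RpL36A, with 64.8, 27.5 and 42.5 CPM in the mixture and 17.8, 25.5 and 27.5 CPM in T1 (log2 fold change 0.96, SE 0.30, adjusted p = 0.0109), and DESeq2 did not call it (adjusted p = 0.0526). Without T1 library 1 or mixture library 1, RpL36A was not called either (adjusted p = 0.113 and 0.41), nor was RpS10a without T1 library 3 (adjusted p = 0.0833). Mixture library 2 had the lowest levels of RpL40, RpL28 and RpL36A in its group, and without it 10 members were called. These comparisons share the T1 libraries with those of T1 against the other types.

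Tm2, an input to the motion pathway, had the highest level of RpL22, an RNA-binding protein of the large subunit (FBgn0015288; chromosome X, 762560 to 765130, minus strand). RpL22 had 46.7, 56.2 and 44.2 CPM in Tm2, against 12.97, 8.84 and 10.6 CPM in sorted neurons. The highest library of another type was one of Mi1, at 19.9 CPM, so Tm2 did not overlap with any. The log2 fold change against the other types was 3.15 (SE 0.17, adjusted p = 2.08e-21), and 2.53 with T2, which had no RpL22 read, left out (adjusted p = 8.85e-21). RpL22 was 0.451% ± 0.0633 (SD, n = 3) of the family's reads in Tm2, against a median of 0.125% over the types and 0.024% in Lawf1. An RNA gene on the same strand, lncRNA:CR42491, covers 34.3% of the exon bases of RpL22, and reads of the 2 cannot be told apart there.

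In all, 13 of 82 members were called higher in Tm2, where 8.54% of all tested genes were. This count rested on library 2 and on T2: it was 5 without Tm2 library 2 and 5 with T2 left out. The median log2 fold change was 0.52 over the members and −0.04 over all tested genes. At an unadjusted p under 0.05, 51 members were higher and 1 lower. No member was called lower, and DESeq2 called none lower. RpS2, which lines the mRNA entry of the small subunit, had 595, 927 and 541 CPM in Tm2 and 301, 288 and 327 CPM in sorted neurons (log2 fold change against the other types 1.83, SE 0.15, adjusted p = 4.46e-15). RpL8, close to the peptidyl transferase centre, had 466, 695 and 447 CPM in Tm2 and 269, 247 and 285 CPM in sorted neurons (log2 fold change 1.35, SE 0.13). Both were among the members not called in Lawf1, where RpS2 was at 342, 284 and 319 CPM.

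Tm5c had low levels of most members, short of T2. In Tm5c, 16 of 82 members were called lower than the mean of the other types, where 3.37% of all tested genes were, and 1 was called higher, where 18.8% were. The median change was −0.76 (log2) over the members and 0.22 over all tested genes. With T2 left out, 39 members were called lower and 1 higher. Without Tm5c library 2, 26 members were called. RpL26, next to the exit tunnel, had 20.3, 30.8 and 29.2 CPM in Tm5c, against 74.3, 54.6 and 81.0 CPM in sorted neurons (log2 fold change against the other types −1.36, SE 0.24, adjusted p = 4.77e-06). RpS15Ab fell by 1.34 (SE 0.26) and RpL27 by 1.28 (SE 0.21) on the log2 scale, and both were below all 3 libraries of sorted neurons. RpL36A did not follow, at 21.04, 23.5 and 24.8 CPM in Tm5c (log2 fold change 0.12, SE 0.24, adjusted p = 0.801). The member called higher was RpS5b, at 1.73, 2.19 and 1.49 CPM (adjusted p = 0.0461), and it was not called when any 1 of the 3 Tm5c libraries was left out (adjusted p = 0.0828 to 0.251).

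**Figure D4:**
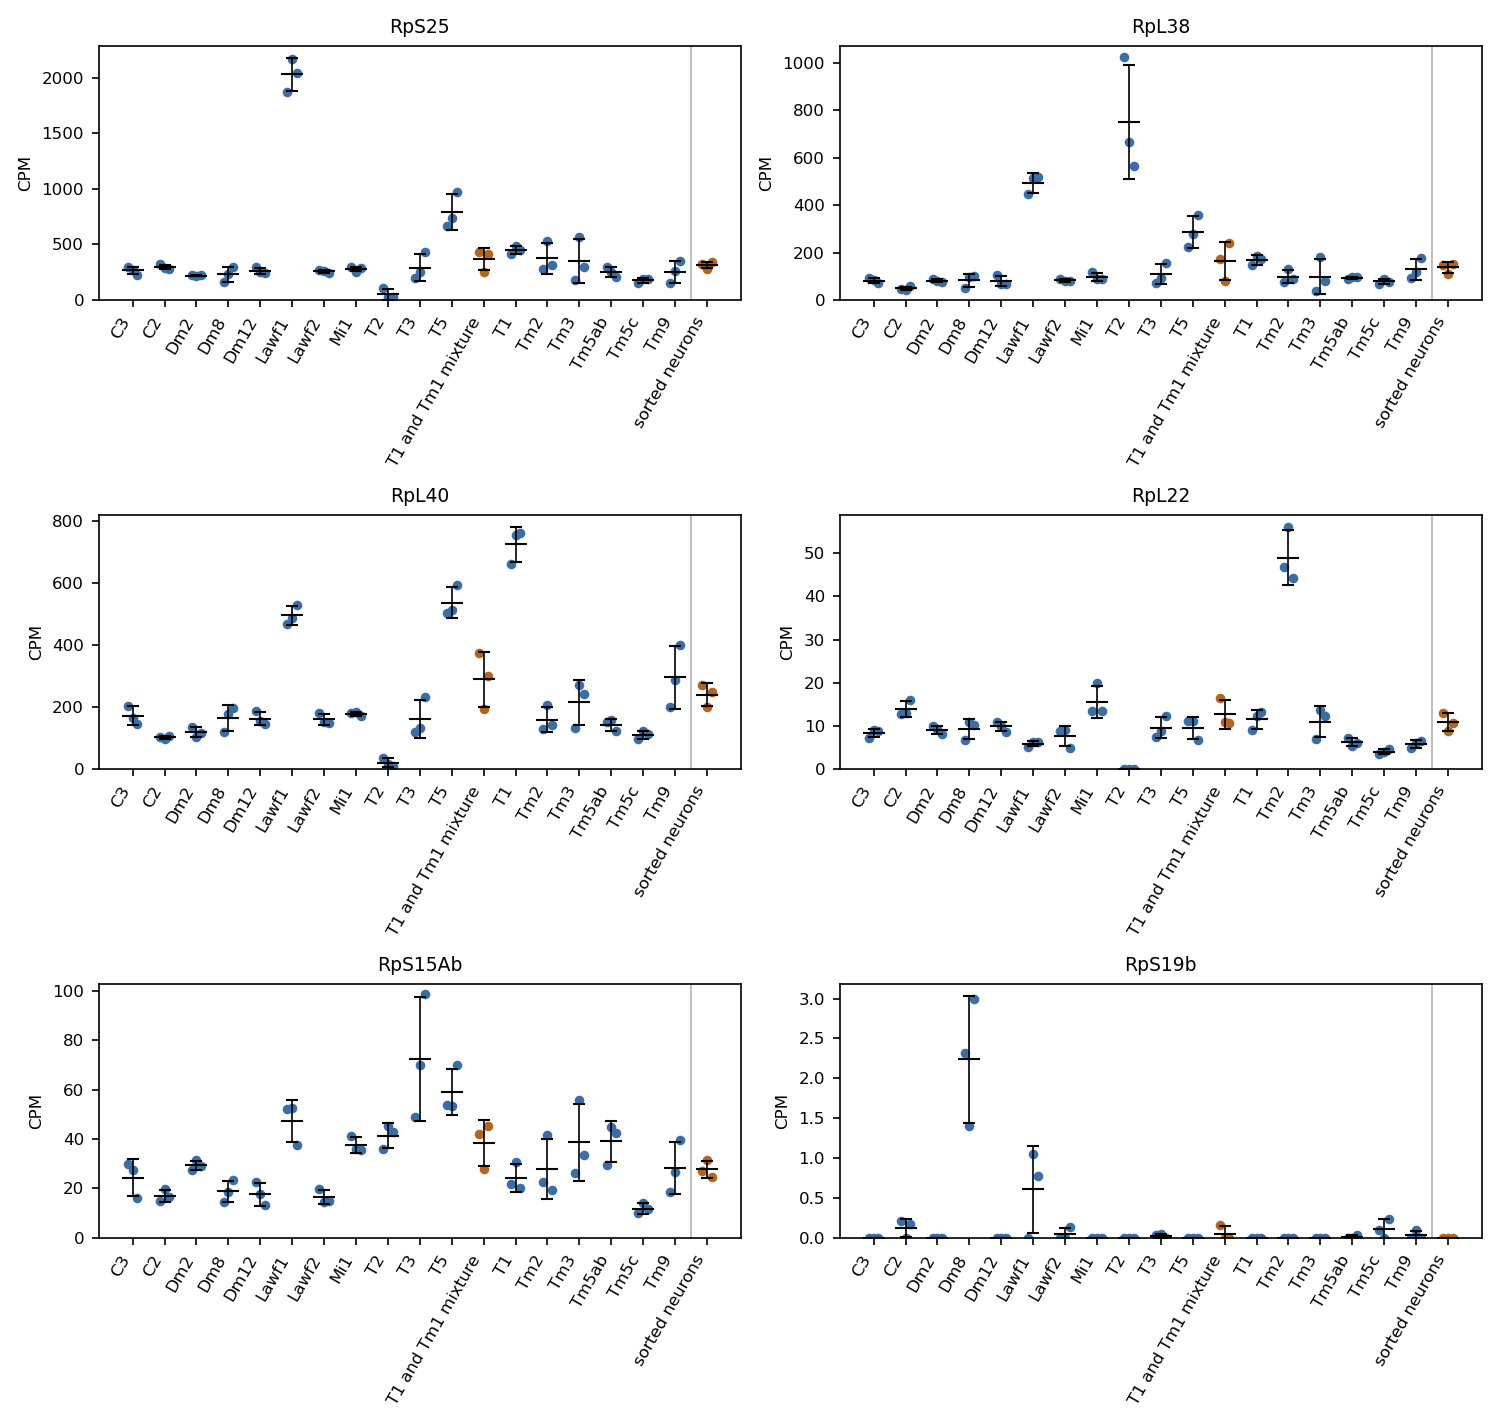
Level in CPM (y axis) of RpS25, RpL38, RpL40, RpL22, RpS15Ab and RpS19b in each library (points), with the mean ± SD over 3 libraries, by group (x axis). RpS25 peaks in Lawf1, RpL38 in T2, RpL40 in T1, RpL22 in Tm2, RpS15Ab in T3 and RpS19b in Dm8.

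The remaining types, C2, C3, Dm2, Dm8, Dm12, Lawf2, Mi1, T3, Tm3, Tm5ab and Tm9, had few called members, below the share of all tested genes called in either direction in each. C2 had 2 higher and 3 lower, where 28.7% of all tested genes were called in either direction. Its lower members were RpL38 (44.5, 43.8 and 57.4 CPM in C2, log2 fold change −1.42, SE 0.27), RpL36A (−1.19, SE 0.27) and RpL10 (−1.02, SE 0.20), a protein added late in large-subunit assembly. RpL10 was just under the fold threshold without C2 library 2 and had a log2 fold change of −0.95 without C2 library 3. RpL22 was called higher in C2, at 12.7, 13.04 and 16.03 CPM, with a log2 fold change of 1.23 that was 0.57 and not called with T2 left out.

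Lawf2 had 2 members lower, where 4.85% of all tested genes were, namely RpL5 (128, 124 and 107 CPM in Lawf2, log2 fold change −1.39, SE 0.21) and RpS3A (153, 153 and 157 CPM, −1.15, SE 0.16). With T2 left out, 6 members were called in Lawf2. Dm2 had 2 lower, where 2.91% of all tested genes were called lower and 12.9% in either direction, and these were the small tunnel and bridge proteins RpL39 (10.5, 12.5 and 9.59 CPM, −1.20, SE 0.32) and RpL41 (11.5, 11.6 and 11.4 CPM, −1.40, SE 0.31). Both were below all 3 libraries of sorted neurons.

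Dm8, an amacrine type of the colour pathway, had 3 members higher and 1 lower, where 14.5% of all tested genes were called in either direction. They were RpS19b, RpS10a and RpL23A, and RpL39 (−1.04, SE 0.31), and the last 2 were not called with T2 left out. RpS19b passed the filter on low counts only through libraries of Dm8 and Lawf1, so its call is counted but not read as a result. RpS10a (4.69, 1.27 and 7.99 CPM in Dm8) rested on Dm8 library 3, without which its adjusted p was 0.382, and RpL39 was not called without Dm8 library 1 or 2 (adjusted p = 0.138 and 0.0542) nor RpL23A without library 3. Dm12 had RpS10a and RpL23A higher, where 10.5% of all tested genes were, and neither was called with T2 left out. Without Dm12 library 2 or 3, RpS10a was not called (adjusted p = 0.0705 and 0.13), nor was RpL23A without library 1. Dm12 also had the highest share of RpL5 in the family, at 6.29% ± 0.114 (SD, n = 3) against a median of 3.67%.

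Mi1 had RpL22 higher at 13.4, 19.9 and 13.4 CPM, where 8.46% of all tested genes were called higher, and it was not called with T2 left out (log2 fold change 0.80). T3 had RpS10a and RpS15Ab higher, where 9.63% of all tested genes were. T3 library 3 had the highest family share of its group (1.15%, against 0.604% and 0.724% in the others), and without it 2 members were called higher and 3 lower in T3. Tm5ab had RpS5b higher and RpL36A lower (12.03, 10.4 and 6.70 CPM, −1.21, SE 0.27), where 15.8% of all tested genes were called in either direction. RpL36A had a log2 fold change of −0.97 without Tm5ab library 3, under the fold threshold, and DESeq2 did not call RpS5b.

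No member was called in C3, Tm3 or Tm9 by edgeR, where 21.2%, 11.5% and 11.6% of all tested genes were. At an unadjusted p under 0.05, and with no fold threshold, 7 members were higher and 12 lower in C3, 41 higher and 1 lower in Tm3, and 2 higher and 13 lower in Tm9. DESeq2 called RpS10a lower in C3, RpS2 higher in Tm3 and 0 members in Tm9. Tm3 library 1 was the low one, and without it 13 members were called in Tm3.

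Several ribosomal proteins have 2 or more gene copies or a related gene, and the share of each gene within its set differed between types. RpL24-like and RpLP0-like are related to yeast assembly factors, so their shares are not shares between copies of 1 ribosomal protein. RpL24-like, related to the yeast assembly factor Rlp24, held 55.7% ± 3.74 (SD, n = 3) of RpL24 and RpL24-like reads in T5, the highest share, and 30.4% ± 1.39 in T1, the lowest of the 16 types other than T2. Its median over those types was 38.9% (FBgn0037899; chromosome 3R, 11430740 to 11431582, minus strand). RpL34b held 58.3% ± 2.53 of its pair with RpL34a in C2 and 33.5% ± 0.981 in T1, with a median of 52.8%. In both pairs the highest and the lowest share differed by more than the spread between libraries.

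RpS15Ab had the widest range of the pairs with substantial reads on both sides. It held 59.6% ± 3.42 (SD, n = 3) of RpS15Aa and RpS15Ab reads in T3 and 20.7% ± 3.49 in Lawf1, with a median of 35.4%. Its level was 48.8, 69.9 and 98.5 CPM in T3, against 27.1, 31.4 and 24.8 CPM in sorted neurons (log2 fold change in T3 against the other types 1.41, SE 0.17, adjusted p = 2.06e-09). Lawf1 had 52.3, 52.4 and 37.6 CPM of RpS15Ab, and 178, 178 and 188 CPM of RpS15Aa, against 64.2, 57.5 and 70.4 CPM of RpS15Aa in sorted neurons. RpS14a and RpS14b lie next to each other on chromosome X (7933742 to 7934677 and 7934898 to 7935792, both on the plus strand). RpS14b held between 10.9% ± 0.7 (Tm5c) and 22.7% ± 2.57 (T1) of the reads of this pair, and 1 of 117 reads in T2. Where copies are near-identical, the authors' counting of uniquely placed reads could lose or split reads, so shares within a set are uncertain as absolute values.

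RpLP0-like, related to the yeast assembly factor Mrt4, held between 4.05% (Tm5ab) and 8.77% (C2) of its set with RpLP0 in the 16 types. In T2 its share averaged 65.2% ± 36.5 (SD, n = 3) over libraries and it had 32 of only 53 reads in all. RpLP0-like was at 6.12, 2.16 and 2.38 CPM in the 3 libraries. The T2 share of RpL24-like averaged 24.0% ± 15.9 (SD, n = 3) over libraries, and it had 70 of the 199 reads of its pair in all. RpL34b averaged 82.5% ± 10.6 over libraries 1 and 2, with 12 of 14 reads, and library 3 had no read of its pair. RpS15Ab averaged 42.7% ± 5.68 (SD, n = 3), with 245 of 626 reads. T2 shares of RpL34b and RpLP0-like thus rest on few reads.

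**Figure D5:**
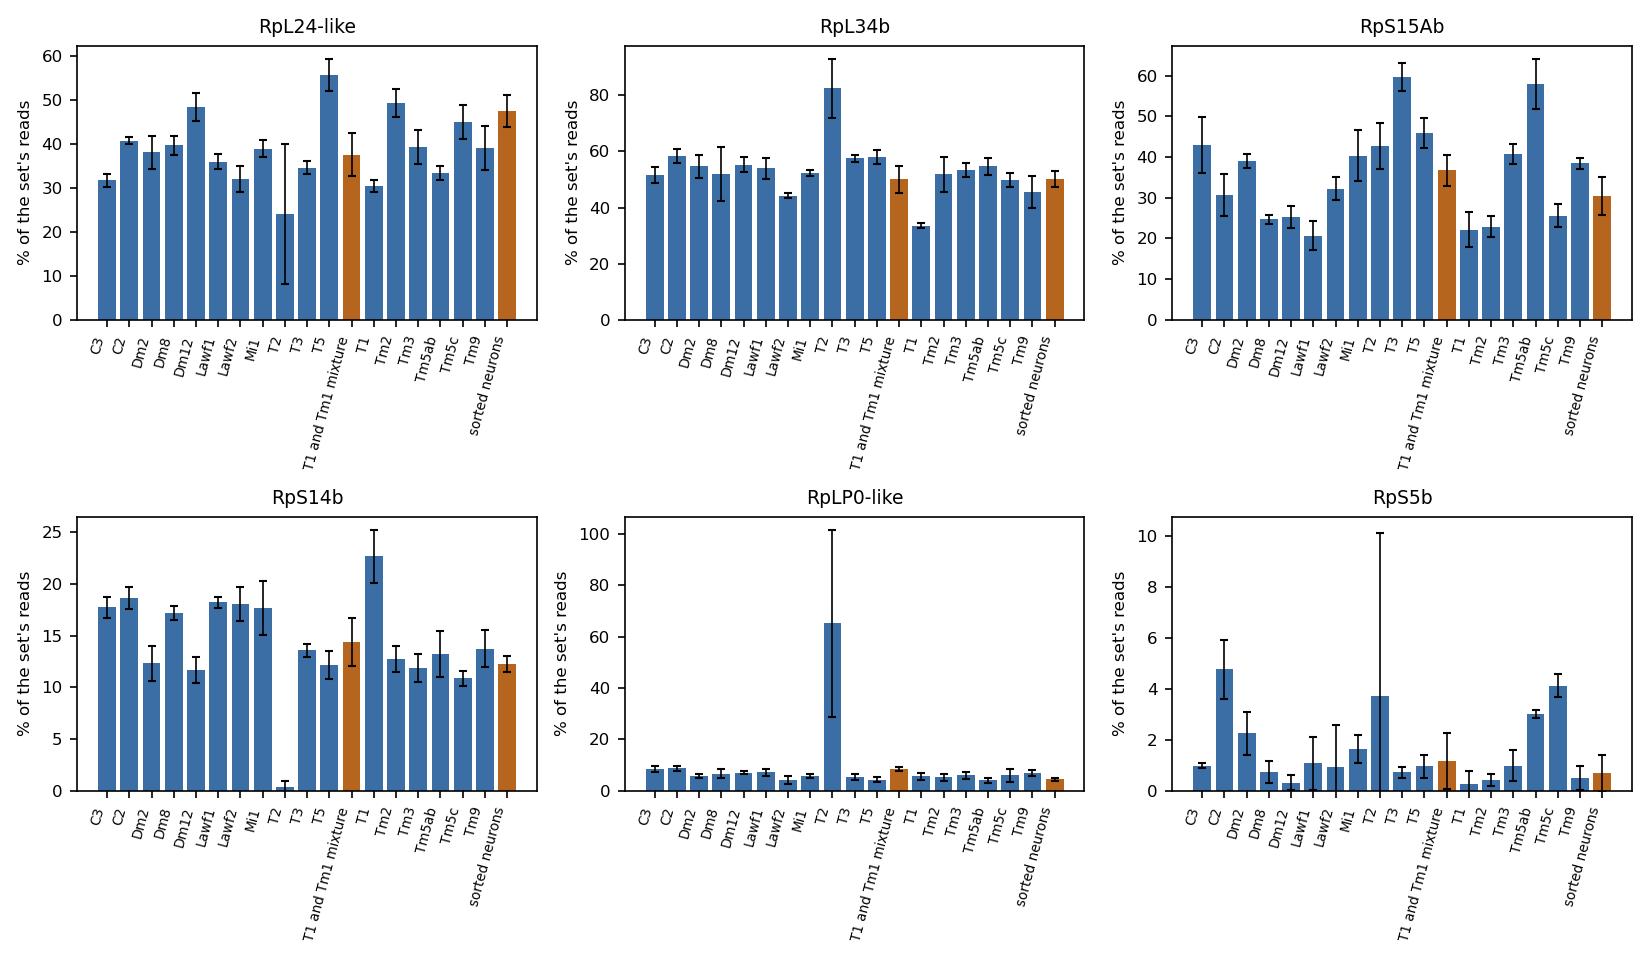
Share of the reads of each paralogue set (y axis, percent) held by RpL24-like, RpL34b, RpS15Ab, RpS14b, RpLP0-like and RpS5b in each group (x axis), as the mean of 3 libraries with the SD as error bar. RpL24-like is highest in T5, RpS15Ab in T3, RpS14b in T1 and RpS5b in C2, and the long error bar of RpLP0-like in T2 comes from few reads.

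The copies known mainly from the fly germ line were low but not uniform. RpS19b (FBgn0039129; chromosome 3R, 23932729 to 23933530, minus strand) had 2.31, 1.41 and 2.99 CPM in Dm8, from 41, 30 and 69 reads, and no read in sorted neurons. That is at least 56.5-fold higher in Dm8 than the floor of sorted neurons of 0.0396 CPM, which is 3 reads over the group. RpS19b passed the filter on low counts with 5 libraries, the 3 of Dm8 and 2 of Lawf1. Its calls in these types are in the counts above, but no test of it is given. It held 9.57% ± 4.72 (SD, n = 3) of its set with RpS19a in Dm8. Lawf1 had 0, 15 and 11 reads of RpS19b, 9 of the types had none, and the other 15 types besides Dm8 and Lawf1 had at most 5 reads and 0.241 CPM in a library. Germ-line markers were low in Dm8: the 3 of 5 listed genes found in the table summed to 0.478 CPM in Dm8, within the range of 0.232 to 3.55 CPM over the types, and bam and osk were at 0 in Dm8.

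RpS5b, the ovary-enriched copy of RpS5a (FBgn0038277; chromosome 3R, 14900432 to 14901563, minus strand), had 2.31, 4.75 and 3.44 CPM in C2, against 1.23, 0.258 and 0.107 CPM in sorted neurons. It was called higher in C2 against the other types (log2 fold change 2.37, SE 0.37, adjusted p = 1.72e-07) and in Tm5ab (1.53, SE 0.44, adjusted p = 0.00457). RpS5b held 4.77% ± 1.16 (SD, n = 3) of its set in C2 and a median of 0.974% over the types without T2. Lawf1 library 1 had 4.16 CPM of RpS5b and its other libraries 0.349 and 1.20 CPM, so Lawf1 overlapped with C2. Dm2 library 1 (2.553 CPM) and Tm5ab library 2 (2.425 CPM) were above C2 library 1 as well. RpS28a, the copy of RpS28b, had 10, 3 and 0 reads in Lawf1, 2, 10 and 15 reads in T5, 8, 10 and 0 reads in Tm2, and 0, 1 and 1 reads in sorted neurons. Only 3 libraries reached the count minimum of its filter, in no group more than 1, and its Lawf1 call was lost without Lawf1 library 1 (adjusted p = 0.369).

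RpS10a (FBgn0027494; chromosome 3R, 27652760 to 27653363, plus strand), whose partner RpS10b was not analysed here, had 5.51, 5.02 and 10.1 CPM in T1, against 3.32, 2.36 and 2.67 CPM in sorted neurons (log2 fold change in T1 against the other types 2.31, SE 0.38, adjusted p = 1.25e-06). It was also called in T3 (5.81, 4.34 and 6.46 CPM, log2 fold change 1.98, SE 0.40). T2, which had no read of RpS10a, entered the mean of the other types in both comparisons and so raised both folds. T1 libraries 1 and 2 lay below a Dm8 library at 7.99 CPM and a T3 library at 6.46 CPM. As no T2 library had a read of RpS10a, T2 was at least 6.05-fold lower than the mean of the other types of 2.85 CPM. The lowest other type, C3, was at 0.271 CPM, below the 0.47 CPM that 0 reads allow in T2. T2 thus cannot be told apart from C3 for this gene. RpL22-like had at most 14 reads in a library, with 3, 0 and 0 reads in T2, and RpL10Aa, RpL37-2 and RpS28-like had at most 12, 15 and 6. RpL7-like had 0 reads in every library, and 98.8% of its exon bases are shared with the gene CG34164.

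The mean of the 17 types was close to sorted neurons for this gene family. The median log2 fold change was −0.14 over the members and −0.15 over all tested genes, and 5 of 82 members were called lower in the types, where 15.6% of all tested genes were. No member was called higher, 0 were higher at an unadjusted p under 0.05, and DESeq2 called none higher. The 5 were RpL36A (log2 fold change −0.87, SE 0.21, adjusted p = 0.000865), RpL23A (−0.56, SE 0.16), RpS2 (−0.55, SE 0.17), RpLP0 (−0.49, SE 0.13) and RpL24-like (−0.46, SE 0.17, adjusted p = 0.0493). The T2 libraries entered that mean, and without them 4 of the 5 were not called, namely RpL23A (adjusted p = 0.802), RpS2 (0.229), RpLP0 (0.252) and RpL24-like (0.184). RpL36A kept its call without T2, and RpS3A was then called lower (−0.45, adjusted p = 0.00764). RpL23A was also lost without library 1 of sorted neurons (adjusted p = 0.0613) and RpS2 without library 3 (adjusted p = 0.0554). RpL24-like was not called without library 1 or 2 of sorted neurons (adjusted p = 0.251 and 0.104), nor by DESeq2 (0.0775). With the exon length trend taken out, the calls were 3 higher and 1 lower.

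Lawf1 and Lawf2, which share a name stem, were far apart. Lawf1 was higher than Lawf2 for 75 of 82 members, where 18.4% of all tested genes were called higher, and no member was called lower. At an unadjusted p under 0.05, 0 members were lower in Lawf1 than in Lawf2, and DESeq2 called none lower. On the log2 scale the median fold was 2.23 over the members and 0 over all tested genes. RpL36A had 170, 172 and 200 CPM in Lawf1 and 18.9, 15.3 and 11.1 CPM in Lawf2 (log2 fold change 3.58, SE 0.31, adjusted p = 7.12e-14). RpL39 had 198, 242 and 222 CPM in Lawf1 and 23.3, 20.2 and 19.5 CPM in Lawf2 (3.39, SE 0.37). RpS27 had 414, 438 and 448 CPM in Lawf1 and 48.4, 50.4 and 39.6 CPM in Lawf2 (3.23, SE 0.33). The summed CPM of the family was 24490 ± 1050 in Lawf1 and 5525 ± 430 in Lawf2 (SD, n = 3 each).

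T2 and T3 differed in the other sense. In T2, 61 members were lower than in T3, where 24.1% of all tested genes were, and 5 were higher, where 17.2% were, with medians of −2.92 over the members and −0.59 over all tested genes. RpL38 had 1024, 665 and 565 CPM in T2 and 73.6, 94.6 and 156 CPM in T3 (log2 fold change 2.85, SE 0.35, adjusted p = 8.41e-10). RpL27 (1.82, SE 0.28), RpL39 (1.56, SE 0.50), RpS29 (1.54, SE 0.33) and RpS27 (1.08, SE 0.39) were the others that were higher in T2. RpL39 was not called without T2 library 1 (adjusted p = 0.578), T3 library 1 (0.0644) or T3 library 2 (0.0534), nor RpS29 without T2 library 1 (0.113). RpS27 had 123, 28.8 and 61.9 CPM in T2 and 25.7, 37.4 and 58.6 CPM in T3, so the libraries overlapped. Its log2 fold change was −0.10 without T2 library 1, and it was not called without T2 library 3, without T3 library 1 or 2, or by DESeq2. The split was 10 higher and 46 lower with the exon length trend taken out. This pair shares the T2 libraries with the comparison of T2 against the other types.

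Tm5ab and Tm5c differed for 6 members, 5 higher and 1 lower in Tm5ab, where 15.3% of all tested genes were called in either direction. RpS15Ab had 29.7, 44.8 and 42.6 CPM in Tm5ab and 9.96, 14.1 and 11.5 CPM in Tm5c (log2 fold change 1.69, SE 0.31, adjusted p = 2.87e-05). RpL26 (1.36, SE 0.29) and RpS2 (1.11, SE 0.25) were also higher. RpL36A was lower, at 12.03, 10.4 and 6.70 CPM in Tm5ab against 21.04, 23.5 and 24.8 CPM in Tm5c (−1.26, SE 0.34, adjusted p = 0.00442), and was not called without Tm5ab library 3 (adjusted p = 0.0665). RpS2 had a log2 fold change of 0.89 without Tm5c library 3. C3 and C2 differed for RpS5b alone, where 12% of all tested genes were called in either direction, with 0.661, 0.609 and 0.681 CPM in C3 and 2.31, 4.75 and 3.44 CPM in C2 (−2.42, SE 0.58, adjusted p = 0.00113). DESeq2 did not call RpS5b in this pair (adjusted p = 0.095).

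Genes that work with the ribosome were counted from lists of elongation factors, initiation factors, assembly factors, regulators and mitochondrial ribosomal proteins. In Lawf1, 5 of 10 elongation genes were called higher and 0 lower, 3 of 27 initiation genes were higher and 0 lower, and 2 of 22 assembly genes were higher and 3 lower, against 27.2% of all tested genes called higher and 7.65% lower. In T5 the counts were 2 higher and 1 lower of 10, 3 higher and 0 lower of 27, and 0 of 22 either way, against 15.2% of all tested genes called higher and 7.71% lower. In T2, 7 of 10 elongation genes, 15 of 27 initiation genes and 10 of 22 assembly genes were lower, with 1, 4 and 2 higher, against 22.5% of all tested genes called lower and 18.5% higher. Of the listed genes, sta, the fly gene for the small-subunit protein RpSA that the naming rule does not catch, was highest in T1 at 594 ± 41.4 CPM and lowest in T2 at 8.26 ± 2.52 CPM. eEF1gamma, an elongation factor subunit, also had its highest level in T1 (183 ± 12.8 CPM), Nacalpha, which binds nascent chains, in Lawf1 (240 ± 9.96 CPM), and eEF2, the translocation factor, in Tm2 (1396 ± 351 CPM). All 3 were lowest in T2.

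The initiation genes of largest spread were the subunits eIF3m, eIF3d1, eIF3e and eIF3k of the factor that binds the small subunit, with peaks in Tm2 (466 ± 52.3 CPM), T1 (119 ± 6.7 CPM), T1 (109 ± 13.5 CPM) and T5 (134 ± 6.09 CPM). Among assembly genes, Non1 was highest in T1 (352 ± 48.2 CPM), Ns3 and Mybbp1A in Tm3 (35.1 ± 12.2 and 16.4 ± 11.1 CPM) and Nop56 in T3 (43.1 ± 3.38 CPM). Those 8 genes were lowest in T2. Of 8 regulators, 5 were higher and 1 lower in Lawf1, 2 higher and 2 lower in T5, and 3 higher and 3 lower in T2, beside the shares of all tested genes given above for these types. Xrp1, a transcription factor that acts in Minute cells, ranged from 60.6 ± 16.2 CPM in T1 to 4928 ± 1980 CPM in C3. Myc was highest in T2 (280 ± 55.2 CPM) and lowest in Mi1 (19.9 ± 3.96 CPM), raptor, a subunit of TOR complex 1, was highest in Lawf1 (100.1 ± 6.98 CPM), and pho, a Polycomb-group DNA-binding protein, was highest in T2 (1053 ± 296 CPM).

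The genes of the mitochondrial ribosome, 70 of 71 tested, shared the extremes. In Lawf1, 47 were higher and 1 lower, with a median log2 fold change of 1.43, where 27.2% of all tested genes were higher. In T5, 44 were higher and 0 lower, with a median of 1.11, where 15.2% of all tested genes were higher. In T2, 59 were lower and 1 higher, with a median of −3.61, where 22.5% of all tested genes were lower. Short genes in general moved the same way in these types, as given above. The mitochondrial genes are not set beside genes of their length here, and the part of length in their values was not tested. In T1 the families differed in counts, with 13 of 82 cytosolic members called higher and 0 of 70 mitochondrial ones, which had a median of −0.22, where 13.9% of all tested genes were higher, and the difference between the families was not tested. In the mixture against T1, 20 mitochondrial ribosomal protein genes were higher and 0 lower, where 17 cytosolic members were lower and 1 higher, against 17.3% of all tested genes higher and 12.6% lower. mRpL48 and mRpL22 were highest in T5 (183 ± 45.8 and 118 ± 10.8 CPM), mRpL12 in Lawf1 (208 ± 8.7 CPM) and mRpL1 in Tm9 (128 ± 23.3 CPM).

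Outside these families, genes whose levels over the 17 types were among those that ranked most like the summed members, of 5062 ranked, were asRNA:CR45874 (Spearman rho 0.892), eIF3i (0.887), eIF3h (0.885), Tapdelta (0.873), eIF3f1 (0.865), CG8891 (0.86) and CG5500 (0.85). The antisense RNA asRNA:CR45874 covers 50.3% of the exon bases of RpS9 on the other strand, and the library kits do not mark strand, so their reads cannot be told apart there. eIF3i, eIF3h and eIF3f1 are subunits of initiation factor 3, and Tapdelta belongs to the protein channel complex of the endoplasmic reticulum. All 7 were lowest in T2, at 1.65 to 14.3 CPM. Other members that share exon bases with another gene are RpL23A (31.9% with Uhg7), RpL30 (25.1%), RpL24 (21.6%), RpL37A (19.7%) and RpL3 (18.5%), and their levels may hold reads of those genes.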

How the data were processed

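RNA-seq libraries of sorted optic lobe neurons were made with SMART-Seq v4 and Nextera XT from 300 to 500 pg of RNA and read as 100 bp pairs, per the labels' protocols. The authors deposited unnormalized counts of reads for each gene, made with Trimmomatic 0.32, STAR 2.5.2, HTSeq 0.6.1 and BDGP6, per the submitters' processing notes. The strand setting and whether replicates are separate dissections are not given in the sources used here. The 5 summary lines were left out, of which reads in no feature were 40.5% to 49.2% and reads without a unique place 7.15% to 23.3% per library. Symbols were matched for 17252 identifiers and not for 306. Coordinates and exon lengths are from Ensembl release 115 on BDGP6.

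Counts of the 57 libraries were filtered with filterByExpr, scaled with TMM and fitted with edgeR 4.0.16 in R 4.3.3 (robust quasi-likelihood, 1 coefficient per group), and p-values were adjusted over 12569 genes by Benjamini-Hochberg. A call needs an adjusted p under 0.05 and, for single types and name-stem pairs, a log2 fold change of at least 1 either way. Shares, ratios and figures used Python 3.11.15, and log2 values a pseudocount of 1. The fit was checked on simulated counts. Libraries of a group differed by more than counting noise (chi-square per degree of freedom 12.46 to 292.2), so none was merged.

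The text names paralogues, the members of largest and smallest spread, the highest per length, the leading called members of each comparison, members that failed a test or filter, up to 4 genes of each other list and the most similar genes, up to 8. Some named items are not reported here. Other members named, such as RpL3, RpL4, RpL8 in Lawf1, RpL5 in T5 and those of highest share in a type, were chosen after their values were seen. The members, lists and tests were chosen with earlier results of these data known. Alternatives were DESeq2 1.42.0, upper-quartile scaling, no filter, an exon length trend as offset (lowess span 0.3), the library number as a block, T2 or T1 left out, and each library left out.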

Additional observations from a re-analysis of the deposited data

How the results depend on the processing

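Of 266 alternative values for 33 comparison results, 213 stayed within 1.5 times or within the spread between libraries and 53 did not. None of the 63 named member results reversed under any of 476 alternatives, 44 of which lost the call (DESeq2 gave no adjusted p for 4). Of the fits with a library left out, these 476 hold only those of lowest and highest fold for each result. Calls lost in the other such fits are not among the 44. Outside these 63, RpS27 in T2 against T3 turned to −0.10 (log2) without T2 library 1. DESeq2 called 1 member in C3, 2 in Mi1, 1 in Tm3 and 0 in C3 against C2. Upper-quartile scaling called 2 in Mi1. Without the filter on low counts, 3 members were called in Mi1, 1 in Tm3 and 9 in the 17 types against sorted neurons. With the exon length trend as offset, 1 was called in C3, 2 in Mi1, 20 in T1, 30 in T5 and 33 in the mixture against T1. With T2 left out, 1 was called in C3, 0 in Dm12, 2 in Dm8, 6 in Lawf2, 0 in Mi1, 5 in Tm2, 40 in Tm5c and 2 in the types against sorted neurons. Per exon length the family share relative to the median type was 2.19 in Lawf1 and 1.73 in T5, and without mitochondrially encoded reads 2.3 in T5. Median paralogue shares per exon length were 51.0% for RpL24-like, 43.4% for RpL34b, 8.19% for RpLP0-like, 18.7% for RpS14b and 44.9% for RpS15Ab. The causes were not tested beyond what the settings themselves change.

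Libraries were left out in turn only from the type named, or from both groups of a pair. This gave 16 to 24 called members in T1, 5 to 21 in Tm2, 1 to 13 in Tm3, 13 to 26 in Tm5c and 2 to 5 in T3. It gave 0 to 2 in Tm9, 0 to 1 in C3, 1 to 3 in Dm12, 2 to 3 in Dm8, 2 to 4 in Lawf2, 2 to 4 in Mi1 and 1 to 3 in Tm5ab. The ranges were 5 to 14 in Tm5ab against Tm5c and 10 to 17 in the mixture against T1. For the types against sorted neurons, only libraries of sorted neurons were left out, which gave 3 to 4. With the library number as a replicate block, 71 members were called in Lawf1, 56 in T5, 66 in T2, 13 in T1, 12 in Tm2, 19 in Tm5c, 6 in the types against sorted neurons, 18 in the mixture against T1, 75 in Lawf1 against Lawf2 and 66 in T2 against T3. The numbers do not pair the libraries: deviations from group means correlated at a median of 0.00124 over 513 same-numbered pairs, and 22 of 57 libraries correlated best with their own number. DESeq2 size factors and upper-quartile scaling moved fold changes by at most 0.13 and 0.87 on the log2 scale. Depth limits T2 most, where 0 reads allow up to 0.47 CPM.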
